A study of Mus musculus with 6 samples.

Results

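The spleen repertoire of rearranged T cell receptor β chains (TCR-β) was described from the 2 libraries titled as spleen, out of 6 libraries in the series; the other 4 came from tumors. The mice were of the C57BL/6 strain. On day 0 each hindlimb received, subcutaneously, 100000 cells of MO4, a derivative of the B16F10 melanoma line with ovalbumin. Injections of 1000000 cells labelled IFN-α-iPSC-pMC were made beside the right tumor 5 times, on day 5 and the next 2 days and again on days 12 and 13. RNA was taken on day 14. Both spleens therefore came from tumor-bearing, treated animals, and no spleen of an untreated or tumor-free mouse was analysed here. The series text names 2 mice, so spleen 1 and spleen 2 were read as 1 mouse each, although no label ties a library to an animal. The protocol text attached to the spleen labels speaks of tumor RNA, and the files hold only TCR-β sequences, so the tissue label could not be checked against marker genes.

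A TCR-β chain gene is assembled in the developing T cell by joining 1 variable (TRBV), 1 diversity (TRBD) and 1 joining (TRBJ) gene segment, with bases trimmed and added at the joints. The joints form complementarity-determining region 3 (CDR3), the loop that contacts the presented peptide. The mouse locus carries a pair of D-J-C clusters in a row, each with 1 D gene ahead of its J genes, so the D gene of the first cluster can join J genes of either cluster, whereas direct joining of the D gene of the second cluster reaches the J genes of its own cluster.

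The segments below are shown because the CDR3 lengths and the residues of its middle are set beside them. All lie on the plus strand of chromosome 6 in GRCm38, as given by the GENCODE M21 annotation and transcripts. The D genes are printed whole, in lower case. In the J genes, capitals mark the codon of the phenylalanine at which the CDR3 ends.
TRBD1, chr6:41533201-41533212: gggacagggggc
TRBD2, chr6:41542163-41542176: gggactgggggggc
TRBJ1-1, chr6:41533864-41533911: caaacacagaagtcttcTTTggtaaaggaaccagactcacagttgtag
TRBJ1-6, chr6:41535554-41535606: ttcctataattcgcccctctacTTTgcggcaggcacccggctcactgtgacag
TRBJ2-2, chr6:41542957-41543007: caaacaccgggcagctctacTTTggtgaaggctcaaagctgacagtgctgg
TRBJ2-3, chr6:41543223-41543271: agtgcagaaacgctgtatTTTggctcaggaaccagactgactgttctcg
TRBJ2-7, chr6:41543810-41543856: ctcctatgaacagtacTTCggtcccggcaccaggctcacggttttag

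Clonotypes, defined as a TRBV gene, a TRBJ gene and a CDR3 amino acid sequence without a * or . mark, were counted once whatever their read number. Spleen 1 held 96907 reads without a mark in 64726 clonotypes, and spleen 2 held 135599 reads in 92233 clonotypes. Most clonotypes rested on 1 read, 72.9% in spleen 1 and 73.6% in spleen 2. A clonotype with no read can still make up 0.00310% of spleen 1 or 0.00221% of spleen 2, the share of 3 reads. PCR reads without molecular identifiers are not independent molecules, so these floors and the Wilson 95% intervals given below cover counting error only. P-values of Fisher's exact test count clonotypes within libraries and compare these 2 libraries; they hold no spread between mice.

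All 22 V genes annotated as functional were found, together with the pseudogene TRBV24, and 12 J genes. Of the 276 possible V-J pairs, 270 were seen in spleen 1 and 272 in spleen 2. The files name no TRBD gene.

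The TRBJ2 cluster supplied 67.9% of clonotypes in spleen 1 (Wilson 95% interval 67.6 to 68.3) and 68.5% in spleen 2 (68.2 to 68.8). TRBJ2-7, the J gene nearest to the constant region of its cluster, was the most used, with 19.0% of clonotypes in spleen 1 and 19.5% in spleen 2. TRBJ2-5 followed with 13.1% and 12.8%, then TRBJ2-1, the first J gene of its cluster, with 11.03% and 11.10%. A group of 3 genes lay close together: TRBJ2-3 had 9.75% and 9.84%, TRBJ1-1 9.70% and 9.35%, and TRBJ2-4 9.50% and 9.52%, while TRBJ1-4 was lower at 6.21% and 6.22%. TRBJ2-2 was the least used gene of its cluster, with 5.47% and 5.74%. Within the TRBJ1 cluster, TRBJ1-2 had 5.36% and 5.32% and TRBJ1-3 had 4.82% and 5.02%. The 2 genes that follow TRBJ1-4 in the locus were the least used of all 12. TRBJ1-6 had 3.26% and 3.06%, and TRBJ1-5 had 2.72% and 2.54%. The annotation also holds TRBJ1-7, downstream of TRBJ1-6, which neither file lists.

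V gene use was also uneven. TRBV13-2, a member of the V-beta-8 family, led with 13.3% of clonotypes in spleen 1 and 11.8% in spleen 2. TRBV1, which lies far upstream of the other V genes (chr6:40891229-40891885), had 8.08% and 6.92%. TRBV5 had 7.09% and 7.21%, TRBV16 6.94% and 6.99%, and TRBV13-1 6.24% and 5.92%. The interleaved TRBV12 and TRBV13 genes together gave 36.5% and 34.1% of clonotypes from 5 genes. At the other end, TRBV30 (chr6:41281376-41281990), the last V gene before the D-J-C clusters, had 0.156% and 0.217%, from 101 and 200 clonotypes. TRBV23 had 0.311% and 0.280%. TRBV14 with 2.37% and 2.23%, TRBV2 with 2.58% and 2.86%, and TRBV17 with 2.73% and 2.84% completed the 5 least used genes among the 21 that had at least 50 clonotypes in each spleen. TRBV12-1 and TRBV12-2, and the TRBV13 members, are close relatives, so reads could have been split between them.

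**Figure D1:**
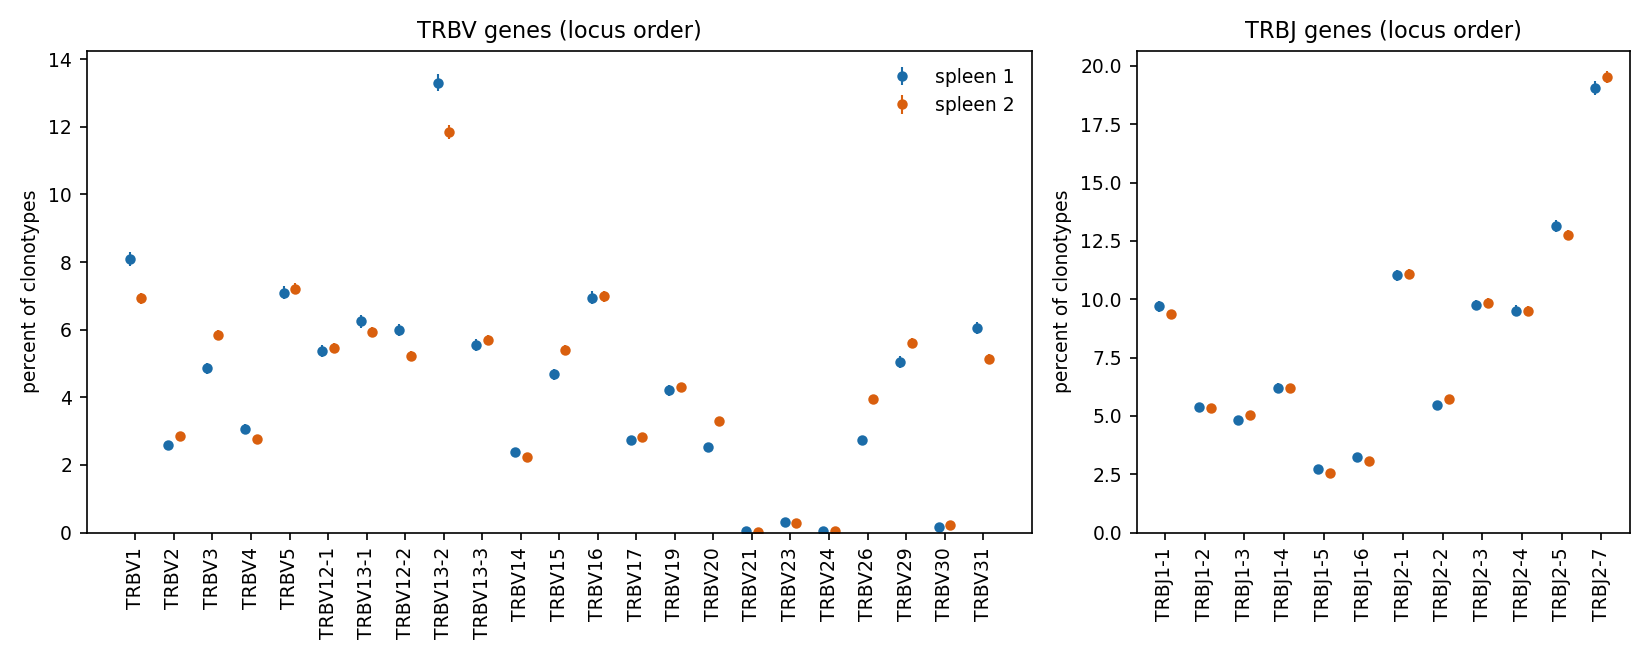
Share of clonotypes by TRBV gene (left) and TRBJ gene (right) in locus order, in percent of the clonotypes of a library, for spleen 1 (blue) and spleen 2 (orange), with Wilson 95% intervals as bars. TRBV13-2 stands highest among V genes at 13.3% and 11.8%, and TRBJ2-7 among J genes at 19.0% and 19.5%.

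The share of a V gene's clonotypes that used the TRBJ2 cluster ranged from 62.8% to 80.4% in spleen 1 and from 63.8% to 84.5% in spleen 2 over the 21 V genes. TRBV17 was joined to the TRBJ2 cluster in 80.4% (78.5 to 82.2) and 81.3% (79.8 to 82.8) of its clonotypes. TRBV30 had 73.3% (63.9 to 80.9) and 84.5% (78.8 to 88.9), on few clonotypes. TRBV16 had 73.1% and 72.9%. The lowest mean shares belonged to TRBV29 with 62.8% and 63.8%, TRBV1 with 63.9% and 64.0%, and TRBV26 with 64.3% and 63.8%. TRBV19 was next, with 62.8% in spleen 1 and 65.3% in spleen 2, and its mean share differed little from that of TRBV26. Neighbours in the locus could differ, since TRBV30, the nearest upstream of the clusters, was among the highest and TRBV29 next to it among the lowest. A relation of the shares to the order of the V genes in the locus was not tested. Across the 21 V genes the shares of the 2 spleens correlated with r = 0.873 and a rank correlation of 0.905, given as a description since the genes share the libraries.

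V and J genes were paired almost as independent choices would be. The bias-corrected Cramér's V of the V-by-J matrix, which is 0 for independent choice and 1 for complete association, was 0.0520 in spleen 1 and 0.0481 in spleen 2. Knowledge of the V gene carried 0.0238 and 0.0209 bits about the J gene. The number of clonotypes expected in a V-J pair is its V total times its J total over the library total. For 158 of the 231 pairs with at least 20 expected clonotypes in both spleens, the observed number was within 1.2-fold of the expected, a count that was the same in each spleen.

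Departures were small but recurred. Each of the 250 pairs with at least 5 expected clonotypes in both spleens was tested by Fisher's exact test, with Benjamini-Hochberg adjustment over the 250 pairs and a threshold of 0.05. In spleen 1 alone, 49 pairs (19.6% of those tested) were above independence and 57 (22.8%) below. In spleen 2 alone the numbers were 59 (23.6%) and 62 (24.8%). Both spleens called 41 pairs above (16.4%) and 44 below (17.6%), and no pair was called in opposite directions. Of the 106 pairs called in spleen 1, 103 lay on the same side in spleen 2, against 205 of all 250 tested pairs. Over the 231 larger pairs, the log2 ratio of observed to expected clonotypes in the 2 spleens correlated with r = 0.878 and a rank correlation of 0.870, as a description over pairs that share their V and J totals. Over all 250 tested pairs, r was 0.688 and the rank correlation 0.769. With clonotypes of at least 2 reads, with fewer tested, the calls in both spleens were 12 above and 10 below.

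**Figure D2:**
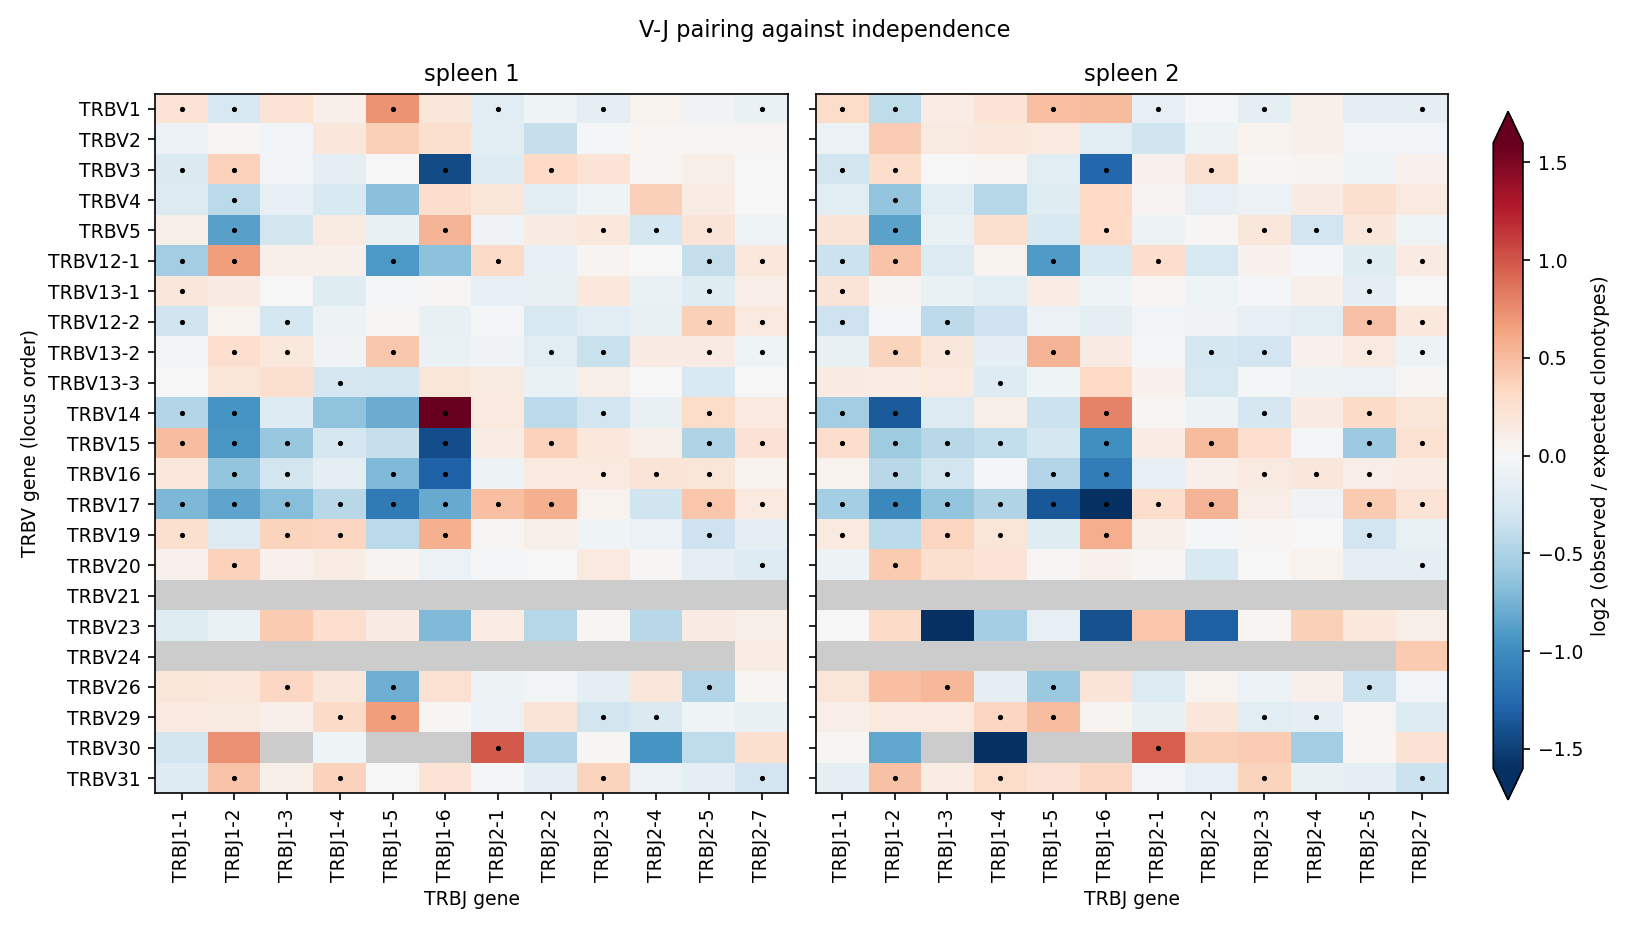
Heat map of the log2 ratio of observed to expected clonotypes for each TRBV gene (rows, locus order) and TRBJ gene (columns) in spleen 1 and spleen 2. Black dots mark the 41 pairs above and 44 pairs below independence in both spleens, grey cells had under 5 expected clonotypes in a spleen, and colours saturate at the ends of the bar; the row of TRBV17 is blue over all TRBJ1 genes in both panels.

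The pairs described next had the 6 highest and 6 lowest ratios in spleen 1, whose values are a description. They were chosen among pairs called in spleen 1 with at least 20 expected clonotypes in both spleens. Apart from this minimum, spleen 2 was not used in the choice, and its ratios and tests are the replicate. All 12 passed the test in spleen 2, on the same side. TRBV14 with TRBJ1-6 stood highest, with 157 clonotypes in spleen 1 against 50.1 expected, a ratio of 3.13. Spleen 2 had 109 against 62.9, a ratio of 1.73 (Fisher's exact test, adjusted p = 4.9e-07). The same clonotype, of 15 residues, led this pair in both spleens, with 236 reads in spleen 1 and 11 in spleen 2. In spleen 1, 28 other clonotypes of the pair differed from it by 1 residue, against 2 in spleen 2. With such variants merged into it, the ratios were 2.65 and 1.71.

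The other 5 pairs chosen for a high ratio were closer between spleens. TRBV1 with TRBJ1-5 had 234 clonotypes against 142 expected in spleen 1, a ratio of 1.65, and 226 against 162 in spleen 2, a ratio of 1.39 (Fisher's exact test, adjusted p = 3.7e-06). TRBV12-1 with TRBJ1-2 had ratios of 1.59 and 1.37 (Fisher's exact test, adjusted p = 8.7e-09 in spleen 2), from 297 and 368 clonotypes. TRBV29 with TRBJ1-5 had 1.59 and 1.41, from 141 and 185 clonotypes. The remaining pairs had nearly the same value in the 2 libraries: TRBV19 with TRBJ1-6 had 1.49 in each, and TRBV17 with TRBJ2-2 had 1.49 and 1.46.

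Among pairs chosen for a low ratio, 3 of 6 involved TRBJ1-6. TRBV3 with TRBJ1-6 had 38 clonotypes against 102 expected in spleen 1, a ratio of 0.371, and 69 against 165 in spleen 2, a ratio of 0.418 (Fisher's exact test, adjusted p = 1.5e-16). TRBV15 with TRBJ1-6 had ratios of 0.374 and 0.506, and TRBV16 with TRBJ1-6 had 0.410 and 0.461. Low ratios with TRBJ1-6 were not general, since TRBV14, TRBV19 and TRBV5 were above independence with the same J gene in both spleens. The other low pairs were TRBV17 with TRBJ1-5 at 0.458 and 0.391, TRBV14 with TRBJ1-2 at 0.522 and 0.393, and TRBV15 with TRBJ1-2 at 0.523 and 0.673. TRBV15 with TRBJ1-2 held a clonotype of 411 reads in spleen 2, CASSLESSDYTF, with 14 variants of 1 residue, and the merged ratio in spleen 2 was 0.629.

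Read by V gene, TRBV17 departed in the most pairs, 10 of 12. It was below independence with all 6 TRBJ1 genes in both spleens, with ratios from 0.312 to 0.737, and above with TRBJ2-1, TRBJ2-2, TRBJ2-5 and TRBJ2-7. TRBV15 and TRBV16 each fell below with 4 TRBJ1 genes, apart from TRBV15 with TRBJ1-1, which was above at 1.41 and 1.21. TRBV2 and TRBV23 had no pair called in both spleens among 12 tested each. TRBV2 had 1672 and 2641 clonotypes, whereas TRBV23 had only 201 and 258. Read by J cluster, 21 of 123 TRBJ1 pairs were above and 27 below in both spleens, and 20 of 127 TRBJ2 pairs were above and 17 below.

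**Figure D3:**
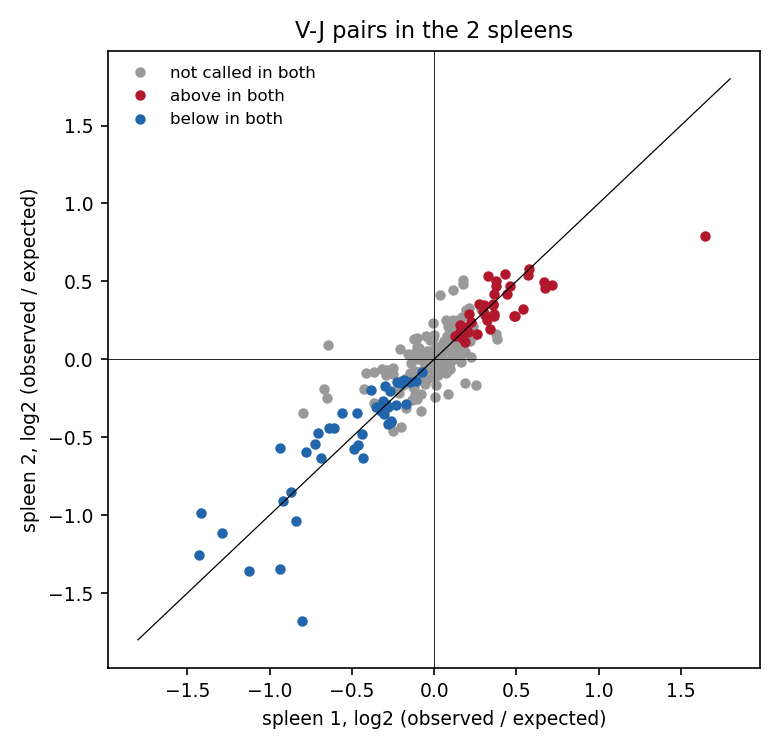
Log2 ratio of observed to expected clonotypes in spleen 1 (horizontal) and spleen 2 (vertical) for the 231 V-J pairs with at least 20 expected clonotypes in both, with the line of equality. Pairs above independence in both spleens are red and pairs below are blue; the red point far to the right is TRBV14 with TRBJ1-6, at a ratio of 3.13 in spleen 1 and 1.73 in spleen 2.

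CDR3 length, counted in residues from the opening cysteine to the closing phenylalanine of a typical sequence, had a similar distribution in both spleens, and no test of the distributions was run. The mean was 13.89 residues in spleen 1 (SE over clonotypes 0.00570) and 13.87 in spleen 2 (SE 0.00478), with an SD of 1.45 in each. The most frequent length, 14 residues, took 30.5% and 30.3% of clonotypes, and 92.2% and 92.3% had 12 to 16 residues. The extremes were 4 and 38 residues in spleen 1 and 2 and 40 in spleen 2. The J gene accounted for 9.61% of the variance of length in each spleen and the V gene for 3.88% and 4.10%. Both together accounted for 13.5% and 13.7%, and a separate mean for every V-J pair raised this to 14.2% in each.

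By J gene, TRBJ1-1 clonotypes were the shortest with 13.25 and 13.24 residues in spleens 1 and 2, followed by TRBJ2-7 with 13.28 and 13.26 and TRBJ1-2 with 13.55 and 13.53. TRBJ1-5 had 13.84 and 13.80, TRBJ2-5 13.97 and 13.92, and TRBJ2-4 14.06 and 14.07. Means between 14.14 and 14.30 residues belonged to TRBJ1-3, TRBJ1-4, TRBJ2-1 and TRBJ1-6 in spleen 1, and these 4 genes lay between 14.16 and 14.21 in spleen 2. The longest were TRBJ2-3 with 14.47 and 14.44 and TRBJ2-2 with 14.57 and 14.55. The order of the 12 genes was the same in both spleens except for TRBJ2-1, TRBJ1-3 and TRBJ1-4, whose means lay close together.

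The germline J genes shown above differ in the number of bases up to and with the phenylalanine codon. TRBJ2-7 has the fewest with 19, TRBJ1-1 and TRBJ1-2 have 20, and TRBJ1-6 has the most with 25. Over the 12 J genes the mean CDR3 length correlated with this number with r = 0.733 in spleen 1 and 0.711 in spleen 2 (rank correlations 0.747 and 0.765), as a description over genes of the same library. The slope was 0.194 and 0.188 residues per base, below the 1 residue per 3 bases of a codon. TRBJ2-3 lay above the trend, with the second-longest mean on 21 bases. TRBJ1-6 lay below it, with 14.30 and 14.21 residues on 25 bases.

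**Figure D4:**
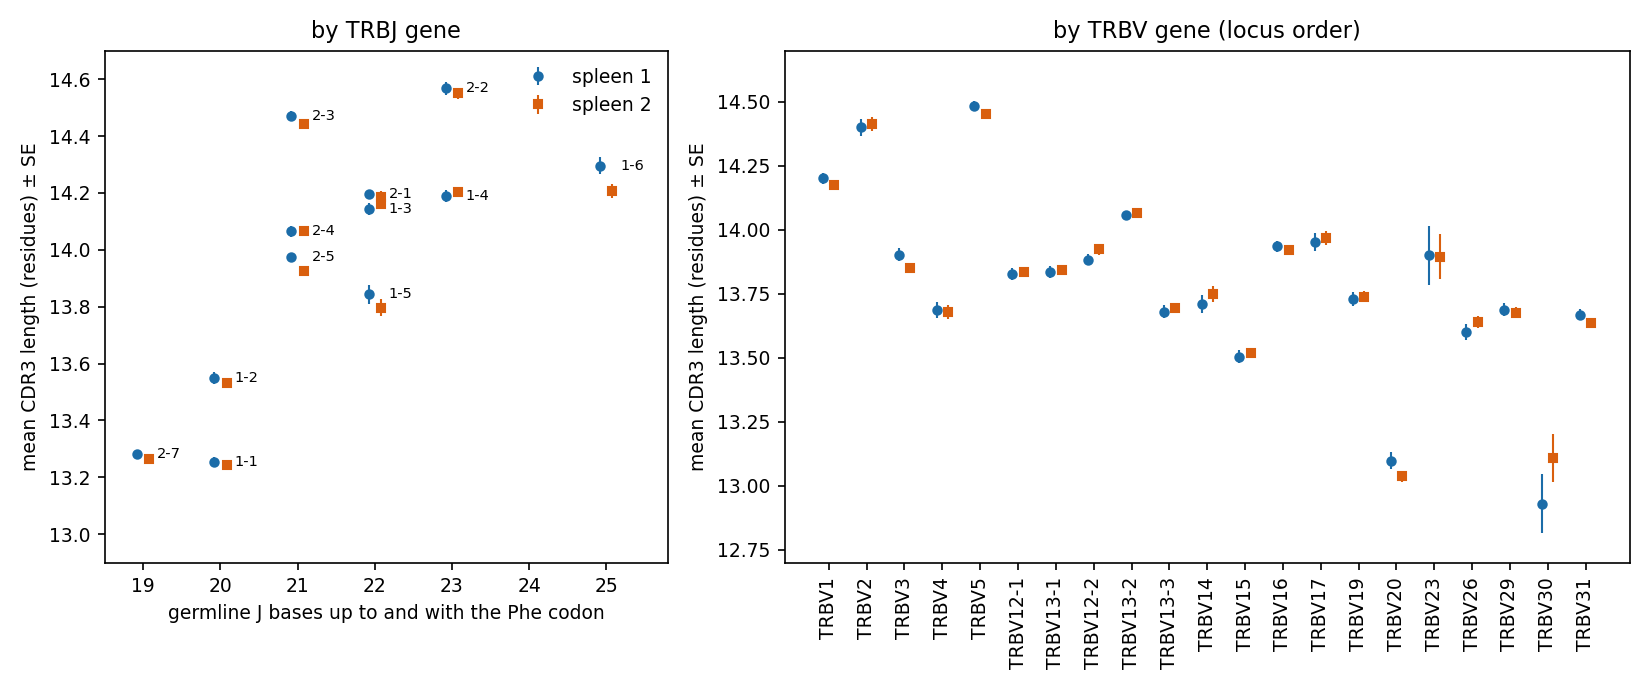
Left, mean CDR3 length in residues for each TRBJ gene against the germline J bases up to and with the phenylalanine codon. Right, mean CDR3 length for the 21 TRBV genes with at least 50 clonotypes in each spleen, in locus order. Spleen 1 is blue and spleen 2 orange, with bars of 1 standard error over clonotypes and axes that do not start at 0; TRBV5 and TRBV2 stand highest and TRBV20 and TRBV30 lowest in both.

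By V gene, TRBV5 clonotypes were the longest with 14.48 and 14.45 residues, followed by TRBV2 with 14.40 and 14.41 and TRBV1 with 14.20 and 14.17. The shortest were TRBV30 with 12.93 and 13.11, TRBV20 with 13.10 and 13.04, and TRBV15 with 13.51 and 13.52. The number of germline V bases from the cysteine codon correlated with the mean length with r = 0.481 and 0.443 over 21 genes. The rank correlations were 0.435 and 0.358, also as a description over genes of the same library. The means of the V-J pairs combined both ends. Over the 219 pairs with at least 50 clonotypes in each spleen, they ran from 12.5 to 15.3 residues in spleen 1 and from 12.4 to 15.3 in spleen 2. TRBV20 with TRBJ2-7, the shortest in spleen 1, had 12.52 and 12.60 residues. TRBV20 with TRBJ1-1, the shortest in spleen 2, had 12.58 and 12.44. TRBV2 with TRBJ2-2 was the longest in both, with 15.27 and 15.31. The pair means of the 2 spleens correlated with r = 0.962 over these 219 pairs.

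Residue use was narrow at both ends of the CDR3 and most mixed just inside the V end. At 14 residues, the most frequent length, there were 19744 clonotypes in spleen 1 and 27901 in spleen 2. Position 1 was cysteine in 97.1% of them in both spleens. Alanine at position 2 took 87.2% and 87.3%, serine at position 3 took 81.9% and 83.4%, and serine at position 4 took 75.6% and 76.3%. Threonine at position 2 with 8.002% and 6.903%, and tryptophan at position 3 with 6.04% and 4.80%, are the residues of the openings of TRBV1 (CTC) and TRBV31 (CAW).

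From position 5 the residues spread. Leucine was the most frequent there with only 21.3% and 21.8%, ahead of aspartate and proline, and the Shannon entropy of 3.61 and 3.63 bits was the highest of all 14 positions. Glycine led at positions 6, 7 and 8, with 27.2% and 27.0%, 37.5% and 38.4%, and 34.2% and 34.2%. Asparagine led at position 9 with 20.4% and 19.6%, just ahead of glycine with 17.87% and 18.04%. At position 10, aspartate, glutamate and asparagine each lay between 14.6% and 15.4%. Glutamate at position 11 took 37.8% and 38.1%, next to threonine with 37.3% and 37.0%. Glutamine at position 12 took 43.4% and 43.6%, tyrosine at position 13 took 64.2% and 65.1%, and phenylalanine at position 14 took 99.3% and 99.5%.

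**Figure D5:**
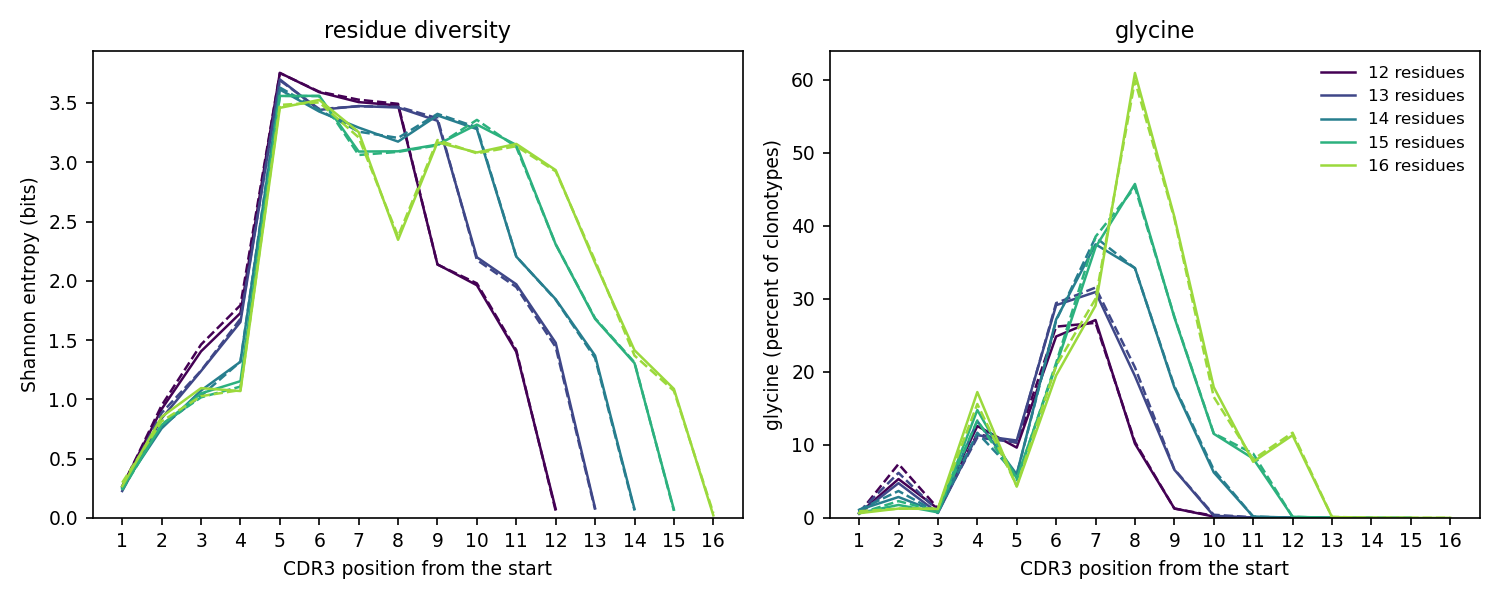
Shannon entropy of the residues in bits (left) and glycine in percent of clonotypes (right) at each CDR3 position counted from the start, for clonotypes of 12 to 16 residues in separate colours, with spleen 1 as solid and spleen 2 as dashed lines. Entropy jumps at position 5 at each length, and the glycine peak is higher in longer CDR3, from 27.1% at 12 residues to 60.9% at 16 in spleen 1.

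The glycine peak was higher in longer CDR3. At 12 residues it stood at position 7 with 27.1% in spleen 1 and 26.7% in spleen 2, at 13 residues at the same position with 30.9% and 31.5%, and at 14 with the values above. At 15 residues it had moved to position 8 with 45.7% and 45.3%, and at 16 residues it reached 60.9% and 59.9% there. Over the middle of all CDR3, with the first 3 and last 4 residues left out, glycine made up 20.3% of residues in each spleen and serine 16.87% and 16.96%. Cysteine was the rarest of the 20 in spleen 1 with 0.148%.

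Openings differed among V genes, though several genes shared one. The most frequent first 5 residues were CASGD for TRBV13-2 (45.9% and 43.8% of its clonotypes), CTCSA for TRBV1 (65.1% and 65.5%), CASSQ for TRBV5 (57.1% in each) and TRBV2 (65.1% and 65.7%), and CASSL for TRBV16 (43.6% and 42.4%). TRBV13-1 opened most often with CASSD (39.3% and 40.3%), TRBV17 with CASSR (47.0% and 47.3%) and TRBV14 with CASSF (27.3% and 25.6%). CASSL was also the leading opening of TRBV3, TRBV12-1, TRBV12-2, TRBV15, TRBV24, TRBV26 and TRBV29. TRBV20, which is short in its mean CDR3, opened with CGARD in 20.2% and 18.8%, TRBV23 with CSSSQ in 49.8% and 45.3%, and TRBV30 with CSSRD, in 16.8% in spleen 1.

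At the J end, the last 5 residues varied less than the residues before them. The leading ending was found in 91.7% and 91.6% of TRBJ2-3 clonotypes (ETLYF), 91.3% and 90.9% of TRBJ1-4 clonotypes (ERLFF), and 60.3% and 60.0% of TRBJ2-7 clonotypes (YEQYF), the lowest of the 12 genes. The most frequent last 8 residues were the same in both spleens for every J gene, with shares well below those of the last 5. TRBJ1-6 had the most uniform ending, SYNSPLYF, in 18.1% of its clonotypes in spleen 1 and 19.5% in spleen 2. TRBJ1-3 followed with NSGNTLYF (14.0% and 12.4%), then TRBJ2-2 with ANTGQLYF (12.97% and 12.69%) and TRBJ1-4 with ISNERLFF (12.0% and 10.6%). TRBJ2-4 led with GSQNTLYF, TRBJ2-3 with GSAETLYF, TRBJ2-1 with GNYAEQFF, TRBJ1-5 with GNNQAPLF and TRBJ2-5 with GGQDTQYF, each in 5.10% to 10.5% of clonotypes. TRBJ1-2 with GANSDYTF had 5.21% and 5.62%. TRBJ2-7 with GSSYEQYF (3.85% and 3.58%) and TRBJ1-1 with GANTEVFF (3.49% and 3.60%) were the least uniform.

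Residue motifs that the D genes can encode differed in frequency between the J clusters. Read in its 3 forward frames, TRBD2 gives GLG and DWG, TRBD1 gives GQG and DRG, and both give GTG, as a script found in the sequences printed above. Motifs were counted in the middle of the CDR3, with the first 3 and last 4 residues left out, where they can also arise from added bases or from V and J residues. The TRBD2 motifs were found in 11.4% (11.1 to 11.7) of TRBJ2 clonotypes in spleen 1 and in 10.8% in spleen 2. In TRBJ1 clonotypes, whose J genes lie upstream of TRBD2, they were found in 0.424% (0.344 to 0.522) and 0.519%. The shares differed 26.8-fold in spleen 1 and 20.7-fold in spleen 2. The TRBD1 motifs were found with both clusters, in 8.09% and 8.37% of TRBJ1 clonotypes and in 4.85% and 4.94% of TRBJ2 clonotypes. GTG was found in 4.83% and 4.82% of TRBJ1 and 6.04% and 6.18% of TRBJ2 clonotypes.

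Every TRBJ2 gene carried the TRBD2 motifs more often than any TRBJ1 gene. TRBJ2-7 had the most with 12.5% and 11.7% and TRBJ2-2 the fewest of its cluster with 8.73% and 8.01%. Among TRBJ1 genes, TRBJ1-3 stood above the rest with 0.929% and 1.36%. By V gene the share ran from 2.73% and 2.77% in TRBV29 to 13.3% and 11.4% in TRBV4. TRBV29 also had the lowest mean share of the TRBJ2 cluster, with 62.8% and 63.8%, against 72.4% and 73.3% in TRBV4. The part of the cluster share in the motif shares was not tested. TRBV4 and TRBV29 were named here after their motif shares were seen.

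The 2 spleens agreed more closely in J than in V use. Moving from one library to the other would reassign 1.15% of clonotypes by J gene, 5.13% by V gene, 6.21% by V-J pair and 0.862% by CDR3 length. No J gene passed the Fisher test of spleen 1 against spleen 2 at an adjusted p of 0.05 (0.0% of 12 genes); 6 had an unadjusted p below 0.05, and the lowest adjusted p was 0.0625. Among V genes, 13 of 23 (56.5%) passed, 7 higher and 6 lower in spleen 2. The count was also 13 when spleen 2 was thinned to the number of reads of spleen 1; the number of clonotypes was not matched.

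The V genes that differed were grouped by place. In the downstream group, TRBV26 had 2.73% of clonotypes in spleen 1 and 3.94% in spleen 2, a ratio of 1.44 (Fisher's exact test, adjusted p = 1.4e-37). TRBV30 had a ratio of 1.39 and TRBV29 of 1.11, and no gene of this group passed as lower in spleen 2. The rest of the group did not pass: TRBV21 had a ratio of 0.702, TRBV23 of 0.901 and TRBV24 of 1.02. In the TRBV12 and TRBV13 group 3 of 5 genes passed as lower in spleen 2, TRBV12-2 with a ratio of 0.870, TRBV13-2 with 0.890 and TRBV13-1 with 0.948. None passed as higher, and TRBV12-1 had a ratio of 1.016 and TRBV13-3 of 1.025. The V genes at both ends of the locus were lower, TRBV1 at 0.856 and the inverted TRBV31 at 0.847. TRBV20 with 1.31, TRBV3 with 1.202, TRBV15 with 1.15, TRBV2 with 1.11 and TRBV4 with 0.903 completed the list, all named because they passed. With 1 library per animal, differences between mice and between library preparations cannot be told apart.

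J use within a V gene was compared as well. When the J genes of each V gene were compared between the spleens over the same 250 pairs, 1 passed the adjusted Fisher test (0.4%), and 22 had an unadjusted p below 0.05. A pair holds fewer clonotypes than a V gene, so this count cannot be set against that of the V genes. The pair that passed was TRBV14 with TRBJ1-6 (Fisher's exact test, adjusted p = 9.0e-06), the pair with the 236-read clonotype and its variants. Mean CDR3 length by V gene correlated between spleens with r = 0.992 over 21 genes, with a median difference of 0.0157 residues, and by J gene with r = 0.997 over 12. At 14 residues, the share of a residue at a position differed between the spleens by a median of 0.0467 percentage points over 258 combinations. The 2 largest differences were glycine at position 4, at 13.3% in spleen 1 and 11.7% in spleen 2, and serine at position 3, higher by 1.47 points. TRBV13-2, which opens with CASGD, and TRBV1 and TRBV31, which open with CTC and CAW, were also lower in spleen 2; their part in these differences was not tested.

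Few exact clonotypes were common to both libraries. The 6212 shared clonotypes were 9.60% of spleen 1 and 6.74% of spleen 2, and held 14.1% and 10.3% of reads. Sharing was more frequent among clonotypes with more reads: 36.1% of the 230 clonotypes with at least 10 reads in spleen 1 were found in spleen 2, and 33.8% of the 281 in spleen 2 were found in spleen 1, against 6.99% and 4.59% of 1-read clonotypes. The shared clonotypes were shorter, with a mean of 13.4 residues against 13.9 for the others in each spleen. TRBV13-2 made up 17.8% of them, against 13.3% and 11.8% of all clonotypes of spleens 1 and 2. TRBJ2-7 made up 25.1%, against 19.0% and 19.5%.

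The 5 shared clonotypes with the most reads in the library where they had fewer are shown because they are the sequences best supported in both.
TRBV1 with TRBJ2-7: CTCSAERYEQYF
TRBV13-2 with TRBJ2-5, first: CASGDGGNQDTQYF
TRBV13-2 with TRBJ1-6: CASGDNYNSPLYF
TRBV31 with TRBJ1-4: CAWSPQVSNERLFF
TRBV13-2 with TRBJ2-5, second: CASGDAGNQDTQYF
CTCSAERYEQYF had 72 reads in spleen 1 and 37 in spleen 2. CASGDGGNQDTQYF had 47 and 34, and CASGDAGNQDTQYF, of the same V gene, J gene and length, had 20 and 32. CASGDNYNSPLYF had 31 and 65, and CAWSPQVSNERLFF had 167 and 22. Even the largest of these, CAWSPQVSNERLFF in spleen 1, held 0.172% of reads. In 3 of the 5, TRBV13-2 was joined with its leading opening CASGD.

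Set against the 4 tumor libraries of the series, the spleens had the more nearly independent V-J pairing. Exact permutation tests over the 15 ways to choose 2 of 6 libraries were two-sided, with adjustment over 5 measures; the smallest p they can give is 0.0667, so none could pass 0.05, and the tumors of a mouse are not independent. The bias-corrected Cramér's V was 0.0501 ± 0.00272 (SD, n = 2) in spleens and 0.210 ± 0.0455 (SD, n = 4) in tumors, without overlap (exact permutation p = 0.0667, adjusted 0.167). The difference of -0.160 was -0.119 with clonotypes of at least 2 reads (exact permutation p = 0.133). With 1-residue variants merged it was -0.137. The tumors held 4.09 to 7.44 reads per clonotype and fewer clonotypes, against 1.470 and 1.497 reads in the spleens, and the part of this in the difference was not tested. TRBD2 motifs were found in 7.70% ± 0.234 (SD, n = 2) of spleen clonotypes and 5.55% ± 0.308 (SD, n = 4) of tumor clonotypes (exact permutation p = 0.0667, adjusted 0.167). That difference of 2.15 points was 0.242 points with clonotypes of at least 2 reads (exact permutation p = 0.6).

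Mean CDR3 length was 13.88 ± 0.0131 (SD, n = 2) residues in spleens and 13.94 ± 0.0406 (SD, n = 4) in tumors, also without overlap (exact permutation p = 0.133, adjusted 0.222). The difference of -0.0552 residues was -0.0985 with clonotypes of at least 2 reads and -0.0363 without treated tumor 2. The spread of length was an SD of 1.45 in each (exact permutation p = 1). The TRBJ2 cluster had 68.2% ± 0.391 (SD, n = 2) of spleen and 66.4% ± 2.72 (SD, n = 4) of tumor clonotypes (exact permutation p = 0.533, adjusted 0.667). Distant tumor 1 was the lowest with 62.5%, and without it the difference of 1.77 points was 0.471 points. With clonotypes of at least 2 reads the difference was 1.26 points.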

How the data were processed

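Sequencing used total RNA, an adaptor ligated to cDNA, PCR with constant region primers and paired MiSeq reads of 300 bases, per the labels' protocols. Each deposited file lists TRBV, TRBJ, CDR3 residues, a read count and a percent. Counts were deposited by the authors as whole read numbers, without normalization. The deposited percent is the share of reads without a mark, rounded to 2 decimals, and served only as a check. Not given in the sources used here: aligner, germline reference, gene assignment, error handling and the meaning of the marks * and . in the residues. Marked sequences were left out of clonotypes.

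Clonotypes were counted once. V-J pairs and gene use were tested with two-sided Fisher's exact tests and Benjamini-Hochberg adjustment (threshold 0.05), tested on simulated data first, with Python 3.11.15, SciPy 1.17.1, numpy 2.4.6 and pandas 2.3.3. Figures used matplotlib 3.10.9. All 35 gene symbols matched GENCODE M21.

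Items named were all J genes, all positions at 14 residues and the 5 best shared clonotypes. V genes were drawn from those with at least 50 clonotypes. They were the 5 most and 5 least used and the 3 highest and lowest in mean length and TRBJ2 share. V-J pairs were the 6 highest and 6 lowest ratios in spleen 1, among pairs called there with at least 20 expected clonotypes in both spleens. Members, lists and tests were chosen with earlier results of these data known. The test of J use within a V gene and the restriction to CDR3 from cysteine to phenylalanine were chosen after seeing the data. Alternatives were read weighting, at least 2 reads, merging of 1-residue variants into clonotypes with at least 10 times the reads, added marked sequences, merged V families, equal reads, other minimums and leaving out each library. Libraries with the same title number were taken as a block only in an alternative, since the labels do not say that a number marks 1 mouse.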

Additional observations from a re-analysis of the deposited data

Results flagged for a closer look

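Sequences with a * or . mark were outside every comparison above, yet together made up 6.32% of reads in spleen 1 and 6.62% in spleen 2. They formed 5615 and 8370 sequences, of which 88.1% and 88.5% had 1 read. The TRBJ2 cluster held 71.0% and 70.8% of them, and the bias-corrected Cramér's V of their V-by-J matrix was 0.0604 and 0.0462. No difference from the unmarked sequences was tested.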

How the results depend on the processing

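Over 15 results and 122 alternative values, 106 were classed as the same, 12 as moved and 4 as reversed in direction. Values of the spleens alone were the same if within 1 SD of the main value, and their counts if within 1.5-fold. Leaving out 1 of the 2 spleens cannot move their mean by more than that SD, so those values were the same by construction. The V-J counts with a spleen left out needed a call in 1 library only. Differences from the tumors were judged by direction only, and some changes in their size are given beside those results. Weighting by reads moved Cramér's V of the spleens to 0.0606, mean CDR3 length to 13.83 residues and the length variance explained by V and J to 14.0%. Clonotypes of at least 2 reads gave 13.80 residues, 14.8%, a TRBJ2 share of 69.2%, TRBD2 motifs in 12.1% of TRBJ2 and 0.356% of TRBJ1 clonotypes, and 12 V-J pairs above and 10 below independence in both spleens; fewer clonotypes were tested there, and the cause of the other shifts was not tested. Merged V families gave a Cramér's V of 0.0470 and 13.3%. The difference in the SD of CDR3 length between spleens and tumors changed sign, to 0.0183 with at least 2 reads and over a range of -0.0247 to 0.0308 when 1 library was left out; the cause was not tested. The count of V genes that differed between the spleens ran from 10 to 13, and no J gene passed in any alternative run. Permutation within the title number, a replicate block that pairs the tissues, gave p = 0.111 for Cramér's V and for the TRBD2 motifs, the smallest it can give, 0.222 for mean length, 0.556 for the TRBJ2 share and 1 for the SD of length. The differences between genes of the 2 spleens cannot be recomputed with a library left out. With 1-read clonotypes at 72.9% and 73.6%, depth limits all statements on sharing.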

Other observations

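CDR3 sequences that did not start with cysteine made up 2.79% of clonotypes in spleen 1 and 2.88% in spleen 2, at a mean of 1.01 reads each. In the tumor libraries their shares were 10.7% in treated tumor 1, 9.70% in distant tumor 1, 11.4% in treated tumor 2 and 9.33% in distant tumor 2. The difference was not tested. With only sequences from cysteine to phenylalanine, Cramér's V of the spleens was 0.0492 and 40 V-J pairs were above and 43 below independence in both.

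TRBV30 with TRBJ2-1 had 22 clonotypes against 11.1 expected in spleen 1 and 43 against 22.2 in spleen 2, ratios of 1.98 and 1.94, the only pair of TRBV30 called in both spleens among the 9 tested. It was named after its values were seen.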
